A study of Mus musculus with 2 samples.

Results

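The genes described here are 5 receptors, 1 ligand and 4 feedback inhibitors of growth factor signalling in muscle stem cells. The receptors are Fgfr1, Fgfr4, Met, Musk and Erbb3, the ligand is Igf1, and the inhibitors are Spry1, Spry2, Spred1 and Spred2. Peaks of a Pax7 chromatin immunoprecipitation were taken as theirs when the summit, the base with the most fragments, lay inside the gene's span on GRCm38 or within 100 kb of it. By this rule 20 of the 2977 deposited peaks belonged to the 10 genes, and no peak belonged to 2 of them. The genes were chosen with earlier results of these data known, so their share with a peak is a description and not a test.

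Chromatin immunoprecipitation followed by sequencing (ChIP-seq) was done in untreated muscle stem cells sorted from C57BL/6 mice of the genotype Pax7-YFP KI, which carry a knock-in of yellow fluorescent protein at Pax7. An antibody against GFP, which also recognises the yellow variant, recovered the DNA in 1 library (10622111 tags after filtering), and input DNA from cells of the same genotype made up the other library (20429667 tags). Both libraries carried the knock-in, and ChIP from cells without the tag was not analysed here. Age, sex and the number of mice were not given in the sources used here. There was 1 library per group, so no difference could be tested. Every interval below covers the counting error of the ChIP fragments only, not that of the input. By its title the study asked which genes Pax7 targets, and PAX7 is the transcription factor with a paired domain and a homeodomain by which these cells are recognised.

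Receptor tyrosine kinases sit in the cell membrane, bind a growth factor outside the cell and pass the signal to the RAS, ERK and AKT pathways inside it. FGF receptors, the hepatocyte growth factor receptor MET and insulin-like growth factors are known for their part in the activation, division and growth of muscle stem cells and their progeny. Sprouty and Spred proteins are membrane-associated inhibitors that act downstream of such receptors on the RAS to ERK pathway, and growth factors themselves often induce them, which closes a negative feedback loop.

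The members differed in where their peaks lay, a difference that was not tested. Spry2, Spred1 and Spred2 each had a summit at most 547 bp from the start of the gene, whereas the receptors and Igf1, apart from Erbb3, had no summit within 1 kb of either end of their span. In all, 4 of the 10 genes had a summit within 1 kb of an end, against 4.59% of the 21770 protein-coding genes. Counted by peak, 5 of the 20 lay within 1 kb of an end of the member. The Erbb3 peaks whose nearest gene was Esyt1 or Myl6b lay within 1 kb of an end of that gene and are not in this count. Of the 2975 peaks on the chromosomes, 29.1% lay within 1 kb of an end of some protein-coding gene. That share counts the ends of every gene, so the 5 of 20 cannot be set against it. It shows only that summits at gene ends also occurred elsewhere in the list. The peaks of Spred1 and Spred2 reached into the promoter window that RefSeq gives for these genes (GRCm38.p6, 250 bases before to 50 bases after the start). Such a window was given for 8 of the 10 genes, not for Fgfr1 and Erbb3, and a peak overlapped 2 of the 8. Over all protein-coding genes with a window, 3.83% had one that overlapped a peak.

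Both windows are shown because these peaks reach into the gene's own promoter. Capitals mark the bases inside the deposited peak, and each line runs 5' to 3' on the gene's strand. The Spred1 window lies at chr2:117120821-117121120 on the plus strand and the Spred2 window at chr11:19924192-19924491 on the plus strand.
Spred1: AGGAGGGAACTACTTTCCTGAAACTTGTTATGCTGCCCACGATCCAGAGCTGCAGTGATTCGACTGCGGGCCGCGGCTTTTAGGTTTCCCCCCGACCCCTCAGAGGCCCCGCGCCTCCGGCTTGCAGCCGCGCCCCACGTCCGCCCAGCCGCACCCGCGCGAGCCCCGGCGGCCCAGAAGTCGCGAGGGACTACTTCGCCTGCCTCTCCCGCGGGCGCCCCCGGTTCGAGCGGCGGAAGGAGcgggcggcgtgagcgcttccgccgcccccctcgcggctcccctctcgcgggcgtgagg
Spred2: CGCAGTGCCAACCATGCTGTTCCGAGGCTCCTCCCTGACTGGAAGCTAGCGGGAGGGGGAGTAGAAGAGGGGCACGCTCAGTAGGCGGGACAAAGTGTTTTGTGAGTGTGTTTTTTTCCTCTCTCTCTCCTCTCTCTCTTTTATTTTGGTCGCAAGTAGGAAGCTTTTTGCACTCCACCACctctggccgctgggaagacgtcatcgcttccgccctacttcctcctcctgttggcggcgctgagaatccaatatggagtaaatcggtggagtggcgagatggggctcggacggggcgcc
The peak covered 242 of the 300 bases at Spred1 and 181 at Spred2, in each case the upstream side of the window. Spred1 had 40 CpG dinucleotides and a GC content of 72.3%, and Spred2 had 17 CpG dinucleotides and 57.0%. For comparison, the median over 21262 windows of protein-coding genes was 13 CpG dinucleotides and 56.3% GC, and over the 730 of these windows that overlapped a peak it was 24 and 62.0%.

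The Sprouty windows are shown as the contrast between a gene with a peak just beyond its window and a paralog with none. The Spry2 window lies at chr14:105896770-105897069 on the minus strand, 104 bases short of the nearer peak, and the Spry1 window at chr3:37639697-37639996 on the plus strand. Here capitals mark matches to the motif CANNTG, the E-box bound by basic helix-loop-helix factors.
Spry1: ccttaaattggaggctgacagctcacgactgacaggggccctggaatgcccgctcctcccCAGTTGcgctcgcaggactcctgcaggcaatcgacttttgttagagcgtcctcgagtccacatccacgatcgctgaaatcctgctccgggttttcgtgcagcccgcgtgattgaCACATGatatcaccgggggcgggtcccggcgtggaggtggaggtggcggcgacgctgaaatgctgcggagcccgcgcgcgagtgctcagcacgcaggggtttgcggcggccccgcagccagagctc
Spry2: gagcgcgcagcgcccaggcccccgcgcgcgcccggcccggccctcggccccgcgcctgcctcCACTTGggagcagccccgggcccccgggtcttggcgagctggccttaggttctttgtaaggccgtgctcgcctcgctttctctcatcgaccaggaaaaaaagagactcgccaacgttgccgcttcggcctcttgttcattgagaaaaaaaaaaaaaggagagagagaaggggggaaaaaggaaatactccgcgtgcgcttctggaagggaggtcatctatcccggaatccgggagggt
Spry1 had 29 CpG dinucleotides and Spry2 had 28. Neither window overlapped a peak, so these counts do not describe the sequence under the Spry2 peaks, and a relation of CpG content to peaks was not tested. Motifs were searched on both strands in all 8 windows. The homeodomain motif TAATTA, a pair of inverted TAAT half-sites with a spacer, and the paired domain core GTCACGC had 0 matches in them. Over all 21262 windows 4.53%, 0.315% and 2.66% held these motifs. The AP-1 motif TGANTCA was found in the windows of Igf1 and Met (6.99% of all windows), and CANNTG in those of Fgfr4, Igf1, Met, Musk, Spry1 and Spry2 (69.0% of all windows). None of these matches could lie inside a peak, since the windows that held them overlapped no peak. The Spred1 and Spred2 windows, which did overlap a peak, held no match to any of the motifs. TAATTA and the pair of TAAT half-sites can overlap each other. A match is a description of letters, and an absent match says only that these letters do not occur in the window.

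Of the 10 genes, 9 had at least 1 peak within 100 kb, as did 31.6% of all protein-coding genes. Erbb3 had 5 peaks, Musk 4 and Igf1 3, Spry2 and Spred1 had 2 each, and Fgfr1, Fgfr4, Met and Spred2 had 1 each, while Spry1 had none. At least 3 peaks were thus found at 3 members, against 3.08% of protein-coding genes. Counting only peaks with the member as nearest gene, Igf1 kept 3, while Erbb3 and Musk kept 2 each. With only peaks at or above the list's median −log10 q kept, 4 of the 10 genes had a peak (Fgfr1, Musk, Igf1 and Spry2), as did 18.5% of all protein-coding genes, and all peaks of Fgfr4, Met, Erbb3, Spred1 and Spred2 fell below that limit. Long genes have wider windows, and the members' median span of 59.1 kb was exceeded by only 19.4% of protein-coding genes. Per length, the members' windows held 7.85 peaks per Mb (20 peaks in 2.55 Mb), and the windows of all protein-coding genes 1.88 peaks per Mb, a figure in which a peak counts once for every gene it is near. The farthest member peak lay 92445 bp from Musk with a fold of 10.1, and the nearest summit outside the limit lay 100413 bp from Musk with a fold of 6.75.

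**Figure D1:**
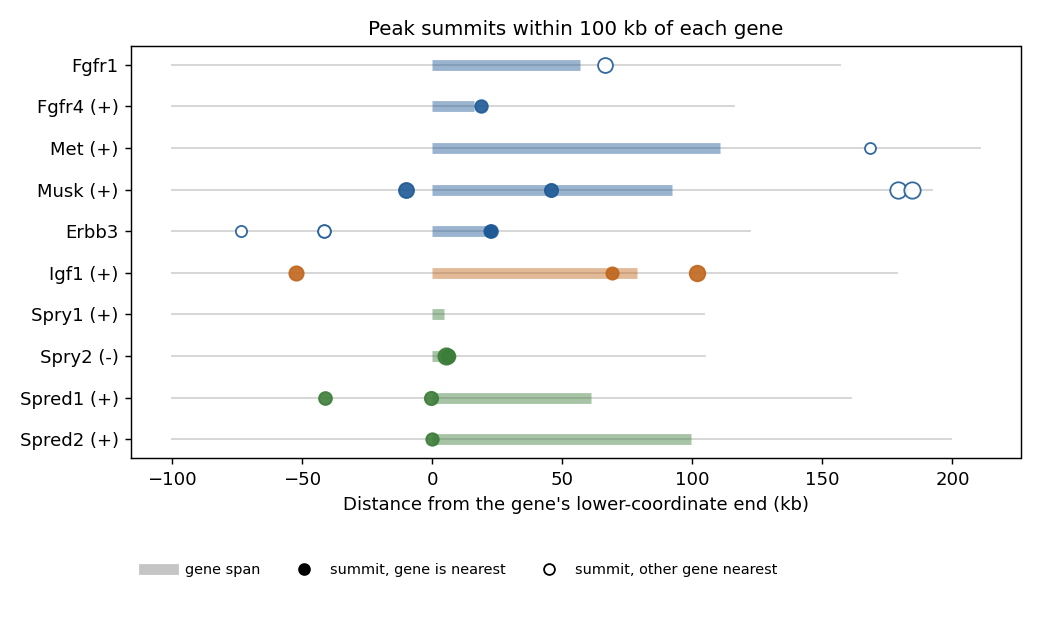
Position of each summit along the 10 genes in kb from the lower-coordinate end of the span (thick bar), with the surroundings of 100 kb on each side (thin line) and the strand in brackets where RefSeq's promoter table gives it. Circle size grows with fold enrichment, filled circles are the 13 summits whose nearest protein-coding gene is the member, open circles the 7 that are nearer to another gene, and all 7 belong to receptors.

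For 13 of the 20 peaks the member was also the nearest protein-coding gene, which left 7 of the 10 genes with a peak of their own by this stricter reading. Among protein-coding genes 9.68% were nearest to a summit within 100 kb. The Igf1, Spry2, Spred1 and Spred2 peaks all had the member as their nearest gene. The remaining 7 peaks were at receptors and stood in or closer to Letm2, Capza2, Lpar1, Myl6b and Esyt1. Peak position alone does not tell which gene a bound region acts on.

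Values of single peaks are the authors', as the peak caller gave them. The pileup counts the ChIP fragments that cover the summit, the local background is the caller's estimate from the input after scaling to the depth of the ChIP library, and the fold enrichment is the pileup plus 1 over that background plus 1. The lowest background in the list, 0.977 fragments, equals the genome-wide average of the scaled input (its tags times the fragment length over the effective genome size), so at peaks with this value the background is that average and not a count at the site. The 95% interval of a fold is the exact Poisson interval of the pileup with the background held fixed.

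Among the receptors, Fgfr1 encodes an FGF receptor that is widely expressed, and Fgfr4 an FGF receptor found in muscle progenitors. The single peak of Fgfr1 (chr8:25585141-25585354) had a pileup of 16 fragments over a local background of 0.977 and a fold of 8.60 (5.13 to 13.6). It lay 9515 bp beyond the gene's higher-coordinate end and inside the neighbouring gene Letm2, which encodes a protein related to a mitochondrial inner membrane protein. The peak of Fgfr4 (chr13:55171576-55171766) had 12 fragments over 1.04 and a fold of 6.37 (3.53 to 10.8). Its summit was 2902 bp past the 3' end of the gene, 18843 bp from the start, with no other protein-coding gene nearer. The intervals of the 2 receptors' folds overlapped over most of their length.

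Met, the receptor of hepatocyte growth factor, had the lowest fold of the 20 peaks, while the first Erbb3 peak had fewer fragments, a lower −log10 q and an overlapping fold interval. The Met peak (chr6:17631576-17631861) had 11 fragments over a background of 1.56 and a fold of 4.69 (2.54 to 8.08), and only 2.05% of all peaks had a lower fold. It lay 57.7 kb past the 3' end of Met and 5317 bp from Capza2, an actin capping protein gene, so that no summit was inside Met, at its start or within 50 kb of it.

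Musk encodes the muscle-specific kinase through which agrin, bound to LRP4, organises the neuromuscular junction. Its own surroundings held 2 peaks, 1 upstream of the gene and 1 inside it. The upstream peak (chr4:58275350-58275838) had 17 fragments over 1.04, a fold of 8.82 (5.35 to 13.8) and its summit 10076 bp before the span. The intragenic peak (chr4:58331330-58331626) had 13 fragments, a fold of 6.99 (3.96 to 11.6) and its summit 45.5 kb from the start. Whether it falls in an exon or an intron was not analysed here.

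The other 2 peaks within reach of Musk were the strongest receptor peaks, with folds of 10.2 (6.57 to 15.2; 22 fragments) and 10.1 (6.29 to 15.5; 19 fragments). They stood 86.8 and 92.4 kb past the gene and inside Lpar1, a lysophosphatidic acid receptor gene that had 6 peaks within 100 kb. All 4 Musk intervals overlapped, so their order is not resolved at this depth.

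Erbb3 encodes a neuregulin receptor with little kinase activity of its own that signals together with its partner ERBB2. A pair of peaks lay just outside the higher-coordinate end of Erbb3, with summits 127 and 383 bp from it. The nearer (chr10:128589647-128589818) had 11 fragments over 0.977 and a fold of 6.07 (3.28 to 10.5). The farther (chr10:128589963-128590153) had 12 fragments over 0.977 and a fold of 6.58 (3.64 to 11.1). Their summits were 256 bp apart with 144 bp between the peak edges, and whether they form a single bound region was not tested. The sources used here did not give the strand of Erbb3, so whether this pair lies at the start or the 3' end of the gene was not settled.

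A second pair of similar strength lay 41.4 to 41.7 kb below Erbb3 at the start of Esyt1, which encodes a tether between endoplasmic reticulum and plasma membrane. Its folds were 6.07 (3.28 to 10.5; 11 fragments) and 6.37 (3.53 to 10.8; 12 fragments), with summits 302 bp apart, and both peaks overlapped a promoter window of Esyt1. The fifth peak, with 9 fragments and a fold of 4.90 (2.51 to 8.87), was 73.5 kb away at the promoter window of the myosin light chain gene Myl6. This stretch is dense in genes, with 11 other protein-coding genes within 100 kb of Erbb3, against 0 to 4 at the other members.

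Igf1, the ligand, encodes insulin-like growth factor 1, a growth factor for muscle and other tissues. It had 3 peaks over a stretch with no other protein-coding gene within 100 kb, and none of them was near a gene end. The strongest (chr10:87960077-87960739) had 20 fragments over 1.25, a fold of 9.33 (5.87 to 14.2) and lay 23.2 kb past the 3' end. At 663 bp it was also the widest of the 20 peaks, whose median width was 256 bp.

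The upstream peak of Igf1 (chr10:87805628-87805958) had 15 fragments over 0.977, a fold of 8.09 (4.75 to 13.0) and lay 52.4 kb before the span. The peak inside the gene (chr10:87927289-87927468) had 11 fragments over 0.977 and a fold of 6.07 (3.28 to 10.5), with its summit 9623 bp from the 3' end of the span. The 3 intervals overlapped. The next summit outside the window was 1152 kb from Igf1, so that these peaks stood alone in a long stretch.

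The feedback inhibitors divided into 3 genes with a peak at the start and 1 without any. Spry2, a Sprouty inhibitor induced by FGF, had the strongest of their peaks. That peak (chr14:105897174-105897568) had 19 fragments over 0.977, a fold of 10.1 (6.29 to 15.5) and its summit 547 bp before the start shown above. A companion (chr14:105897831-105898162) had 14 fragments over 0.977, a fold of 7.59 (4.38 to 12.4) and its summit 1172 bp before the start. The summits were 625 bp apart with 262 bp between the peak edges, and no other protein-coding gene lay within 100 kb of Spry2.

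Spry1, its paralog, which is known in muscle stem cells for the return to quiescence after injury, had no summit within 100 kb. The nearest one was 135724 bp away, nearer to Gm5148, with a fold of 6.37 (3.53 to 10.8). A peak list holds only regions that passed the caller's q limit of 0.01, and the lowest pileup of the whole list was 9 fragments. Weaker enrichment at Spry1 would therefore not be listed, and its absence from the list is no measure of zero binding.

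Spred1, an inhibitor that blocks the activation of RAF by RAS, had 1 peak at its start and 1 distal peak. The peak at the start (chr2:117120747-117121062) had 13 fragments over 0.977, a fold of 7.08 (4.01 to 11.8) and its summit 234 bp before the start. The distal peak (chr2:117079887-117080064) had 14 fragments over 1.25, a fold of 6.66 (3.84 to 10.9) and lay 41.1 kb upstream. The strength of the 2 peaks was not distinguishable by their intervals.

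Spred2, a close relative, had 1 peak (chr11:19924115-19924372), again just upstream of the start, with its summit 187 bp before it. It had 15 fragments over a background of 1.56 and a fold of 6.25 (3.67 to 10.1). The pileup was higher than at Spred1 and the fold lower because the background was higher, and the intervals overlapped. The Spred2 peak and the Met peak shared the highest local background of the 20 peaks.

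**Figure D2:**
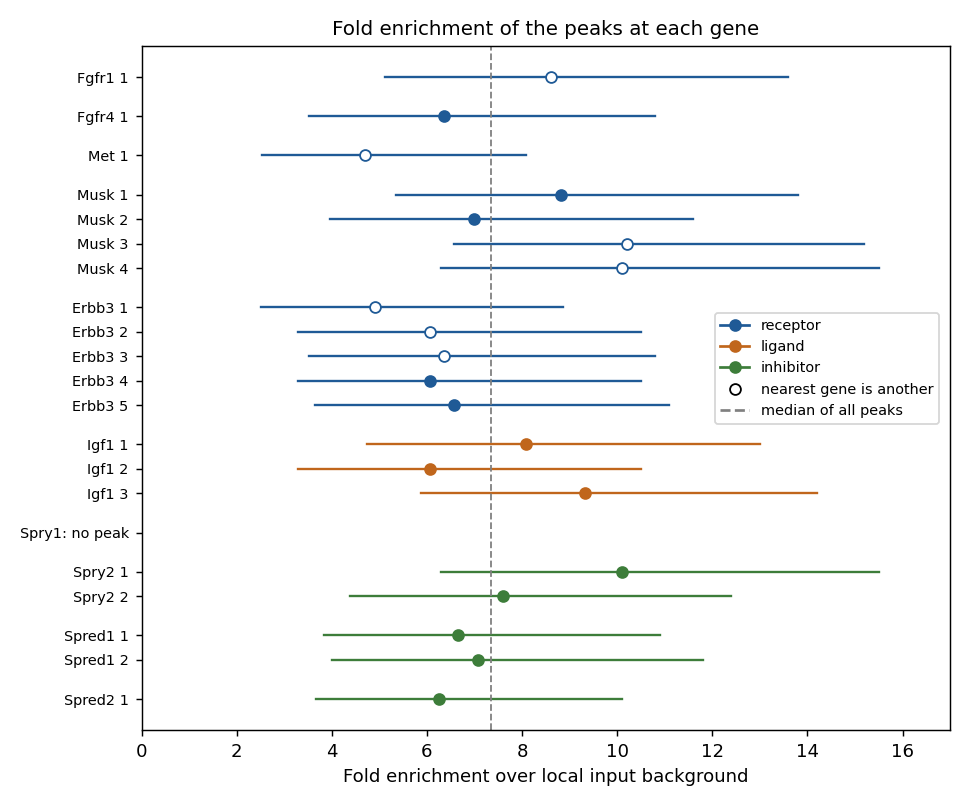
Fold enrichment over the local input background (x axis) of each of the 20 peaks, numbered along the chromosome within each gene, with 95% exact Poisson intervals as lines. Folds ran from 4.69 at Met to 10.2 at Musk, open circles are peaks nearer to another gene, and the dashed line is the median of all peaks, 7.35.

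By strength the 20 peaks lay in the body of the list. Their median fold was 6.83, against 7.35 (quartiles 6.27 and 8.82) over all 2977 peaks, and 8 of the 20 were above that median. A fold of 10 or more was reached by 3 of the 20, at Spry2 and at the 2 Lpar1 peaks near Musk, against 14.4% of all peaks. By role the median fold was 6.47 for the 12 receptor peaks, 8.09 for the 3 Igf1 peaks and 7.08 for the 5 inhibitor peaks, and the ranges of the 3 roles overlapped (4.69 to 10.2, 6.07 to 9.33 and 6.25 to 10.1). The background was at the genome-wide average of 0.977 at 10 of the 20 peaks and nowhere above 1.56, and the average was used at 44.1% of all peaks. Pileups ran from 9 to 22 fragments, so a difference of a few fragments decides the order.

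**Figure D3:**
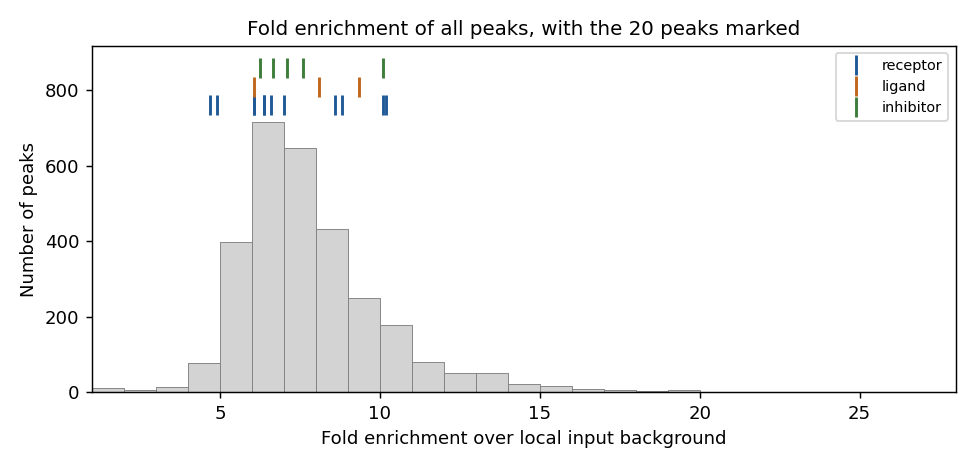
Number of peaks (y axis) by fold enrichment over the local input background (x axis) for all 2977 peaks in grey, with the folds of the receptor, ligand and inhibitor peaks as ticks above. The 20 peaks lie between 4.69 and 10.2, in the body of the distribution, which runs from 1.42 to 27.3.

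Close pairs of peaks were a feature of 2 members, Erbb3 and Spry2. There were 3 pairs with summits at most 1 kb apart, 1 at the end of Erbb3, 1 at Esyt1 and 1 at Spry2, which together make up 6 of the 20 peaks. Over the whole list 5.64% of the peaks had another summit within 1 kb. Of the 6 paired peaks, the first at Spry2 was the widest with 395 bp, while the 4 of the Erbb3 surroundings were 172 to 191 bp wide, close to the caller's fragment length of 172 bp.

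Other genes of the pathway were taken from 4 lists, written with earlier results of these data known, and shares near the 31.6% of all protein-coding genes say nothing particular about a list. Of 35 other receptor tyrosine kinase genes, 9 had a summit within 100 kb (25.7%) and 7 within 10 kb, where the members had 8 of 10 and all protein-coding genes 10.9%. Their highest folds were 13.7 (9.21 to 19.7) inside Ror1, a WNT5A receptor, and 11.6 (7.57 to 17) 130 bp from an end of Tek, the angiopoietin receptor. Mertk, a receptor for the clearance of dead cells, and Epha4, an ephrin receptor, each had a peak of 8.60-fold (5.13 to 13.6) inside the gene. The other FGF receptor genes on the list, Fgfr2, Fgfr3 and Fgfrl1, had no summit within 100 kb, and neither had Erbb2, Erbb4, Igf1r or Insr.

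Ligands and co-receptors had a summit in 8 of 27 genes (29.6%) and in 2 of 27 within 10 kb (7.41%), shares near the 31.6% and 10.9% of all protein-coding genes. Sdc4, a heparan sulphate co-receptor of FGF signalling and a surface marker of muscle stem cells, led with 11.5-fold (7.63 to 16.8) inside the gene. Fgf1 followed with 8.57-fold (5.11 to 13.6) at 80.8 kb, and Egf with 7.59-fold (4.38 to 12.4) at 20007 bp, both nearer to another gene. Pdgfa and Pdgfc, which encode platelet-derived growth factor chains, had 7.08-fold (4.01 to 11.8) each. The Pdgfa peak was inside the gene, while the Pdgfc peak was 78.5 kb away with Pdgfc as its nearest gene. Hgf, the ligand of MET, and Agrn, Lrp4 and Dok7, the ligand, co-receptor and adaptor of MUSK, had no summit within 100 kb.

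Further feedback inhibitors had a summit in 10 of the 19 genes with a position (52.6%) and in 6 within 10 kb (31.6%). Among all protein-coding genes the shares were 31.6% within 100 kb and 10.9% within 10 kb. Errfi1, an inhibitor of the EGF receptor family, had 4 peaks and the highest fold, 15.2 (10.3 to 21.6), at 26.2 kb. Grb10, an adaptor that dampens insulin and IGF receptors, reached 10.1-fold (6.29 to 15.5) with a peak 85.7 kb away and nearer to Ddc. Dusp7, a phosphatase of ERK, had 9.61-fold (5.90 to 14.9) inside the gene and within 1 kb of an end, and Lrig1, which lowers ERBB receptor levels, 8.60-fold (5.13 to 13.6) inside the gene. Spry4, Spred3 and Dusp6 had none within 100 kb.

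Adaptor and kinase genes of the ERK and AKT cascades had a summit in 14 of 30 genes (46.7%, against 31.6% of all protein-coding genes). Within 10 kb it was 4 genes (13.3%, close to the 10.9% of all protein-coding genes). The highest fold was 15.7 (10.7 to 22.2) at 63.8 kb from Mapk3, which encodes ERK1, and nearer to Slx1b. Gab1, a docking protein downstream of MET, had 11.1-fold (7.08 to 16.7) inside the gene. Rras, a RAS-related GTPase gene, had 10.6-fold (6.75 to 16.0) at 1790 bp and nearer to Scaf1, and the adaptor gene Shc1 had 9.58-fold (5.88 to 14.8) at 78.3 kb and nearer to Kcnn3. Frs2, which links FGF receptors to the cascade, had a peak of 6.37-fold (3.53 to 10.8) 97 bp from an end. Frs2 and the genes named as without a summit were chosen after their values were seen.

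**Figure D4:**
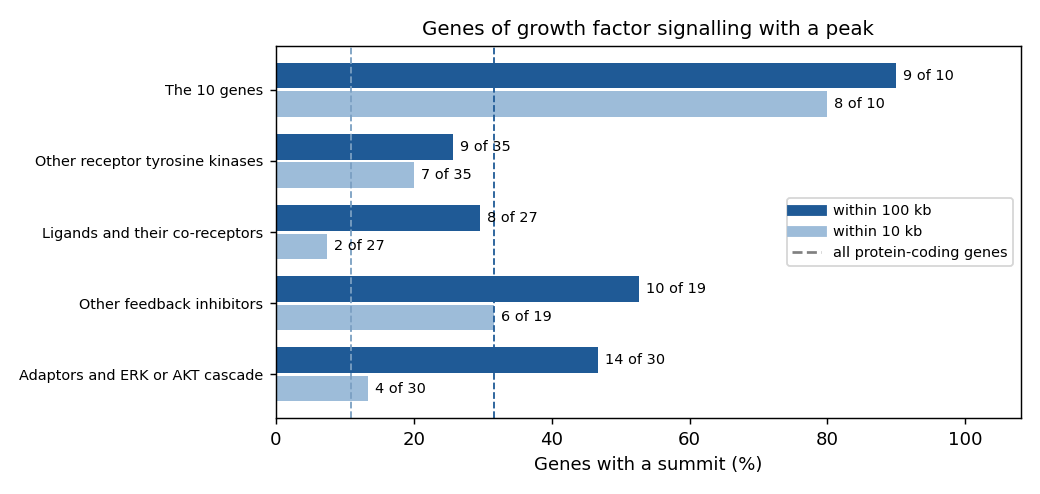
Share of genes (x axis, percent) with a summit within 100 kb (dark bars) and within 10 kb (light bars) of the span, for the 10 genes and 4 lists of related genes, with counts beside each bar. Dashed lines give the share of all protein-coding genes, 31.6% and 10.9%, and the bars of the 10 genes, which were chosen with results known, stand at 9 of 10 and 8 of 10.

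Marker genes were checked only for carrying a peak, since a peak is not a measure of expression and the sort could not be checked this way. Against the 31.6% of all protein-coding genes, peaks within 100 kb were found at 4 of 5 muscle stem cell markers (Pax7, Vcam1, Calcr and Sdc4, not Myf5) and at 3 of 3 endothelial markers (Pecam1, Cdh5 and Tek).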

How the data were processed

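The data were 1 peak list called on 1 ChIP library against 1 input library. Sequencing was single-end with 50 bp reads, per the labels' protocols. The submitters' processing notes name the build GRCm38 and the tools bcl2fastq 2.16, HISAT2 and MACS2 2.1.1. Per the file headers, MACS 2.1.1.20160309 called the peaks with a q-value cutoff of 0.01, at most 1 tag per position, a fragment length of 172 bp and the input scaled down by 0.5199. The authors' pileup is an unscaled coverage signal and their fold enrichment a ratio. Each peak's −log10 p-value and its −log10 q-value were deposited as the caller wrote them.

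From these values the local background was recovered from fold and pileup. Gene spans came from RefSeq (GRCm38.p6), with 21770 protein-coding genes after 113 with coordinates of patches or scaffolds were left out. All 10 genes matched by symbol, and so did all but Spry3 of the pathway lists. Promoter windows came from RefSeq, and their start sites can differ from the end of the span, as at Met, Musk and Igf1. Peak sequences outside these windows were not analysed here. One marker list is not reported here. Nothing was tested. The counting was checked on simulated peaks. Members and lists were chosen with earlier results of these data known. Named are all members, the nearest genes of their peaks and, from each list, at most 4 genes by highest fold (ties included). Alternatives were other distances, a stricter q-value, no top pileups, any overlap and nearest gene only, and joined neighbouring summits as an alternative added after the data were seen. Python 3.11.15, pandas 2.3.3 and scipy 1.17.1 were used.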

Additional observations from a re-analysis of the deposited data

How the results depend on the processing

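The count of genes with a peak (9) was 8 within 50 kb, 8 within 10 kb, 7 with the nearest gene only and 4 with the stricter q-value limit (the median of the list), where Fgfr4, Met, Erbb3, Spred1 and Spred2 had none left. The count of peaks (20) was 15 within 50 kb, 10 within 10 kb, 13 with the nearest gene only, 8 with the stricter q-value and 17 with summits within 1 kb joined, an alternative chosen after the data were seen. Any overlap, and removal of the top 1% by pileup, gave 9 genes and 20 peaks. Of all protein-coding genes 18.5% had a peak under the stricter q-value limit. These counts fall by construction, since each alternative other than any overlap only removes peaks. The median fold (6.83) ran from 6.66 to 9.07 over the 7 alternatives. The 9.07 came from the stricter q-value limit, which favours peaks of high fold by construction. The highest fold per gene changed only where an alternative removed the strongest peak and left another. This was the case at Igf1, which went from 9.33 to 6.07 within 10 kb, and at Musk, which went from 10.2 to 8.82 within 50 kb and with the nearest gene only, and to 6.99 within 10 kb. No paired analysis was possible because there was 1 library per group and no test. The limits are the single ChIP library, the ChIP control without the tag that was not analysed here, and pileups of 9 to 22 fragments, at which the order of the peaks is not resolved.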
